A study of Mus musculus with 2 samples.

Results

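The genes described here encode the proteins of the cytosolic ribosome, measured in single-cell RNA libraries made from mouse tumours after selection for the leukocyte marker CD45. 1 library came from the group labelled CEP, for cepharanthine, a plant alkaloid, and 1 from the vehicle group, whose title reads "Vehide" and which is called Vehicle below. Members were chosen by symbol: Rpl or Rps followed by a digit, plus Rplp0, Rplp1, Rplp2 and Rpsa, without the ribosomal S6 kinases and without symbols holding -ps. Of 32285 gene models 86 matched, and 85 had at least 100 unique molecular identifiers (UMIs, each tagging a captured transcript) over both libraries. Rpl10l had 0 UMIs and was left out. The 85 held 29922886 UMIs and were made up of 51 Rpl genes of the large subunit, 33 Rps genes of the small subunit, and Rps19bp1, which binds Rps19 and is not a subunit. Of them 80 had at least 10000 UMIs. The lowest were Rpl7l1, Rps19bp1, Rps27rt, Rpl3l and Rpl39l, with 8722, 6575, 3299, 301 and 126 UMIs over all barcodes. The 5 symbols holding -ps, which mark pseudogenes, had 4178 UMIs together.

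A ribosome carries a single copy of most of these proteins, so their messenger RNAs are made in a coordinated way and are among the most abundant in growing cells. Most of them begin with a run of pyrimidines at the cap, the 5' terminal oligopyrimidine (TOP) motif, through which the protein kinase mTOR and the RNA-binding protein Larp1 set how strongly they are translated and how long they last. Neutrophils are short-lived cells that leave the bone marrow with most of their proteins already made, and are known for little RNA and little protein synthesis. Macrophages, dividing tumour cells and activated lymphocytes make much more protein.

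The study compared tumours of both treatment groups and states 5 biological replicates per group. Cells carry no mark of their animal, so each group was 1 sample and no test between groups was made. All intervals are 95% intervals that hold counting error and leave out the spread between animals. Those of summed UMIs also leave out the spread between cells. No source used here gives the tumour model, strain, age, dose or schedule, and the tissue was labelled tumor in both groups. From 9621 CEP barcodes (88721774 UMIs in all) 8842 cells were kept, and from 9989 Vehicle barcodes (81208647 UMIs) 9155, while 136 barcode sequences occurred in both libraries. Cells were sorted into classes by marker UMIs: macrophages by at least 10 of C1qa, C1qb and C1qc (complement), neutrophils by at least 1 of Csf3r and Cxcr2, T cells by at least 2 of Cd3d, Cd3e and Cd3g, and epithelial cells by at least 10 of the keratins Krt8 and Krt18, with a ceiling on complement UMIs in the last 3 classes. This gave 4163 and 4565 macrophages, 1652 and 2103 neutrophils, 170 and 258 T cells and 780 and 111 epithelial cells in the CEP and Vehicle libraries, in that order of libraries here and below. Each class had the highest level of its own markers among the classes, with reservations that touch results below. T cells held 27788 and 41560.5 UMIs per 1000000 UMIs (CPM) of 7 neutrophil markers, and 19 and 28 of them also passed the neutrophil gate. Their 7 T cell markers were lower, at 3159 and 3494 CPM. Neutrophils held 718 and 119 CPM of 6 epithelial markers, 6 of 6 detected in each library. T cells held 422 and 37.9 CPM of the same markers and macrophages 172 and 40.4 CPM, each higher in the CEP library. In the neutrophil gate 17 and 4 cells, and in the T gate 2 and 0, also passed the epithelial gate. The part of epithelial RNA in the ratios of macrophages and T cells, CEP over Vehicle, was not tested on its own. Epithelial cells should lack CD45, and remained after the selection for it. UMIs tag transcript ends, so levels of different genes are given per transcript and were not divided by length.

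The pyrimidine run could be looked up at annotated gene starts. Of the 85 members 65 matched an entry in the RefSeq promoter table (GRCm38.p6, the same build as mm10). A run of C followed by 5 bases that are each C or T, on the gene's own strand and starting within 10 bases of the annotated start, was present in 35 of 65 members, or 53.8%. The same run was present in 21.9% of 27025 genes, in 23.2% of 69 genes of mitochondrial ribosomal proteins and in 40% of 15 TOP genes that the symbol rule leaves out. The motif CCGGAAG, searched on both strands of the 300 bases around the start, was in 40% of members and 9.93% of all genes. It was also in 37.7% of the genes of mitochondrial ribosomal proteins and in 26.7% of the TOP genes outside the rule. AAGATGG, searched likewise, was in 15.4% of members and 7.28% of all genes. In those other sets, in the same order, it was in 18.8% and 20%, both above the members. A match describes the letters only, and says nothing of what binds there. The starts below are shown since these genes carry the results that follow, with 15 bases before and 15 bases from the annotated start and the run in capitals; Rps6 is the subunit that mTOR signalling phosphorylates, Rplp2 a stalk protein, Rpl38 one of the shortest members, and Rps9 and Rps27 stand apart in neutrophils. Rpl41, the shortest member, had no such run at its annotated start.
Rps6 (chr4:86857353-86857382, minus strand): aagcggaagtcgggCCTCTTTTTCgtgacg
Rplp2 (chr7:141447636-141447665, plus strand): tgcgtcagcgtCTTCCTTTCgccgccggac
Rpl38 (chr11:114668565-114668594, plus strand): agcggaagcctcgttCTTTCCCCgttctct
Rps9 (chr7:3704026-3704055, plus strand): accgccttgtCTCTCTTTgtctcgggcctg
Rps27 (chr3:90213634-90213663, minus strand): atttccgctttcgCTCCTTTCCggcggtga
Rpl41 (chr10:128549154-128549183, minus strand): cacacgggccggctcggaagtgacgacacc

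Ribosomal protein mRNA took up a large part of the RNA of macrophages, T cells and epithelial cells and a small part of that of neutrophils, in both libraries. The members made up 18.3% and 17.3% of all UMIs in CEP and Vehicle macrophages, 7.38% and 5.37% in neutrophils, 21.5% and 19.5% in T cells and 21.97% and 22.8% in epithelial cells. Per cell the median share was 18.2% and 17.3% in macrophages, 3.36% and 3.38% in neutrophils, 22.6% and 21.2% in T cells and 21.8% and 22.9% in epithelial cells. A neutrophil therefore held far less of its RNA as ribosomal protein mRNA, whichever library it came from. The members' UMIs per cell, a different quantity, had medians of 1714 and 1842 in macrophages and 60.0 and 66.0 in neutrophils, whose median depths were 9738 and 10880.0 UMIs and 1751 and 1840.0 UMIs. Over all kept cells the share was 18.5% and 16.4%, a value that also moves with the make-up of each library.

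**Figure D1:**
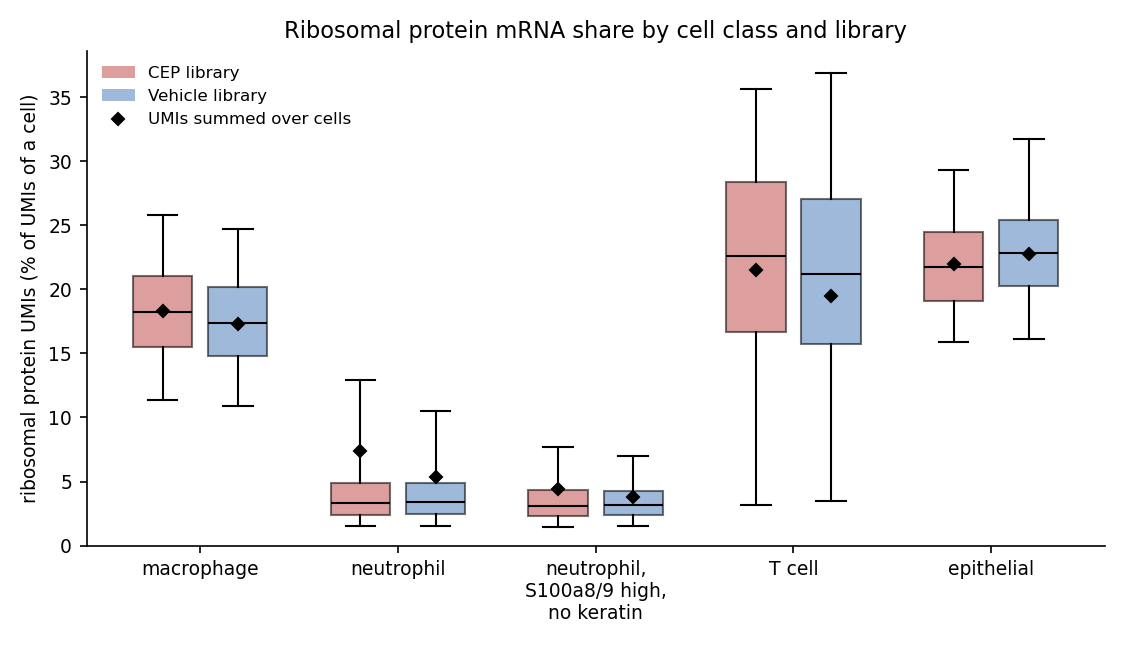
Share of ribosomal protein UMIs per cell (y axis, percent of a cell's UMIs) by cell class (x axis), CEP left and Vehicle right in each pair; boxes span the quartiles with the median as a line, whiskers leave out the lowest and highest 5% of cells, and diamonds give the share over all UMIs of the class. The neutrophil boxes lie far below the others, and their diamonds, 7.38% and 5.37%, lie above their medians, 3.36% and 3.38%.

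The level of single members repeated this. Their median log2 CPM ratio, neutrophil over macrophage, was -1.39 in the CEP library and -1.83 in the Vehicle library, against -0.57 and -0.83 over all genes tested. At least 2-fold lower in neutrophils in both libraries were 78 of 83 members, against a background of 31.2% of all genes. Rps27, Rps9, Rps27rt and Rplp0 were among those that were not, and 0 of the 83 were 2-fold higher, against 10.2% of all genes. Only members and genes with at least 100 UMIs over the classes compared were counted. Neutrophils were the class with the lowest level for 83 members in CEP and 84 in Vehicle, out of 85. Rpl39l tied at 0 UMIs in Vehicle neutrophils and epithelial cells and was counted for neutrophils. T cells and epithelial cells lay close to macrophages, with median log2 ratios over macrophages of 0.24 and 0.15 in T cells and 0.19 and 0.34 in epithelial cells, and 0 of 83 members were 2-fold away in either class, against 10.1% of genes higher and 10.5% lower in T cells and 19% higher and 18.5% lower in epithelial cells. The highest level of a member lay in epithelial cells for 42 and 57 members, in T cells for 34 and 21, in macrophages for 8 and 6 and in neutrophils for 1 and 1, namely Rpl3l. These counts of lowest and highest levels cover members only and have no background over all genes.

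Rps9, a small subunit protein at the mRNA entry side of the ribosome (chr7:3703993-3706897, mm10, plus strand), was the most abundant member in neutrophils. Its level was 3853 and 4005 CPM in CEP and Vehicle neutrophils, against 4459.5 and 4387 CPM in macrophages, 4696 and 4673 CPM in T cells and 4766 and 5042 CPM in epithelial cells, so it lay close to the other classes. At least 1 Rps9 UMI was seen in 96.5% and 96.96% of neutrophils, where Rpl13, a large subunit protein, was seen in 59.4% and 63.01%; in macrophages the shares were 99.7% and 99.9% for Rps9 and 99.9% and 99.8% for Rpl13. Rps27, a zinc-binding small subunit protein, was also close to its macrophage level, at 783 and 656 CPM in neutrophils against 893 and 783 CPM in macrophages, and was seen in 73.2% and 71.5% of neutrophils. In neutrophils of the narrower gate described below, Rps9 had 3773 and 3892 CPM and Rps27 676 and 569.8 CPM. Tsen34, the nearest annotated gene to Rps9 at 2969 bases on the same strand, had 26.9 and 13.8 CPM in neutrophils. Of the 291 windows of 50 bases in the last 300 bases of Rps9 transcripts, 43.6% also occur in another gene model, Gm5905, and of Rps27 100% of 251 windows occur in 9 other gene models, and how reads were shared among such copies was not tested. The same holds for many members, since 67 of 85 share at least 1 such window with another gene model, 45 50% of them or more and 3, Rps27, Rpl10 and Rpl36a, all of them.

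Fau, whose ubiquitin-like fusion protein yields a small subunit protein and which the symbol rule leaves out, had the same pattern, with 5177 and 4978 CPM in neutrophils, 5489.6 and 5160.5 CPM in macrophages, 5866 and 5595 CPM in T cells and 4585 and 4554 CPM in epithelial cells. Rack1, a scaffold protein on the small subunit that the rule also leaves out, did not, with 406 and 265 CPM in neutrophils against 1183 and 1141 CPM in macrophages. Rpl3l, known as the counterpart of Rpl3 in heart and skeletal muscle, was measured at 7.104 and 7.16 CPM in neutrophils, 1.42 and 1.26 CPM in macrophages and 0 UMIs in T and epithelial cells of either library, which in 170 and 258 T cells allows a share of cells with a UMI of up to 2.15% and 1.42%. These neutrophil values rest on 32 and 40 UMIs. Rpl3l (chr17:24727820-24736143, plus strand) ends 499 bases before Msrb1 on the same strand, a methionine sulfoxide reductase gene with 1629 and 1778 CPM in neutrophils, 543 and 549 in macrophages, 337 and 412 in T cells and 47.6 and 50.8 in epithelial cells; the part of this neighbour in the Rpl3l counts was not tested.

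**Figure D2:**
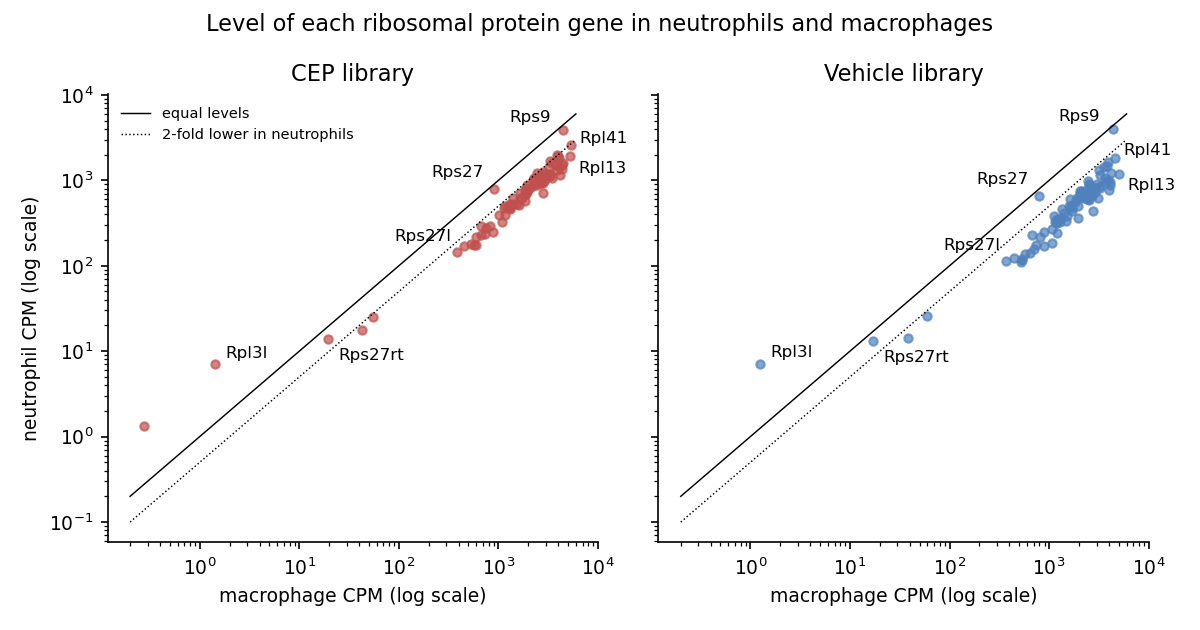
Level of each member in neutrophils (y axis) against macrophages (x axis), in UMIs per 1000000 UMIs of the class on log axes, CEP library left and Vehicle library right; points are genes, the solid line marks equal levels and the dotted line a level 2-fold lower in neutrophils. Most points lie below the dotted line, while Rps9 (3853 and 4005 CPM in neutrophils) and Rps27 lie close to the solid line and Rpl3l above it.

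The make-up of the ribosomal protein pool also differed between classes. For this, a gene's UMIs were divided by the UMIs of all members in a class and set, as a log2 ratio, against the mean of that share in the other 3 classes, in each library on its own; the measure exists for members only and has no background over other genes. The ratios had the same sign in both libraries for 74 of 84 members in macrophages, 78 of 84 in neutrophils, 74 of 82 in T cells and 74 of 83 in epithelial cells. Members at least 25% higher in both libraries numbered 5 in macrophages, 10 in neutrophils, 2 in T cells and 6 in epithelial cells, and members at least 20% lower numbered 5, 9, 4 and 15. Since the shares are parts of a fixed whole, a high share of some members lowers the others. A high share in a single class also raises the mean that the other classes are set against, which lowers their ratios.

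Members are named here by the weaker of their values in both libraries, so a single library can hold a more extreme one. By this order, in macrophages the highest relative shares were those of Rps27l, a p53-responsive copy of Rps27, at 0.50 and 0.58, and of Rpl10a, a protein of the large subunit stalk on the exit side, at 0.43 and 0.51, while Rps29 had 0.52 and 0.33; the lowest were Rpl3l at -2.04 and -2.62 and Rps27 at -0.67 and -0.86. The Rpl3l ratio of macrophages was low beside neutrophils only, since T and epithelial cells had 0 Rpl3l UMIs in either library. Macrophages had a high share of Rps27l and a low share of Rps27, in both libraries. In T cells this was turned round for Rps27l, at -0.78 and -1.12, and the Rps9 ratio was also low, at -0.58 and -0.76. Rps15a (0.53 and 0.54) and Rpl13a (0.37 and 0.50), a protein also known for silencing inflammatory mRNAs once released from the ribosome, were the highest. Epithelial cells stood out by Rplp0, the base of the ribosomal stalk, at 0.54 and 0.55, and Rps2, at the mRNA entry tunnel, at 0.47 and 0.62. Their lowest ratios were those of Rps29 at -1.10 and -1.30 and Rps9 at -0.60 and -0.90. The Rps9 share itself was similar outside neutrophils. It was 2.19% and 2.40% of member UMIs in T cells and 2.17% and 2.21% in epithelial cells. In macrophages it was 2.44% and 2.53%, against 5.22% and 7.46% in neutrophils. Rps29 encodes a small zinc-binding protein of the small subunit head, and it made up 0.443% and 0.381% of member UMIs in epithelial cells against 1.07% and 0.945% in macrophages. In neutrophils Rpl3l (5.21 and 5.79) and Rps9 (1.20 and 1.65) were the highest and Rpl36a (-0.54 and -0.67) and Rpl3 (-0.52 and -0.78), a core protein near the peptidyl transferase centre, the lowest by this order, while Rpl12 had -0.47 and -0.90. Among neutrophils of the narrower gate the Rps9 ratio was 1.90 and 2.10.

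**Figure D3:**
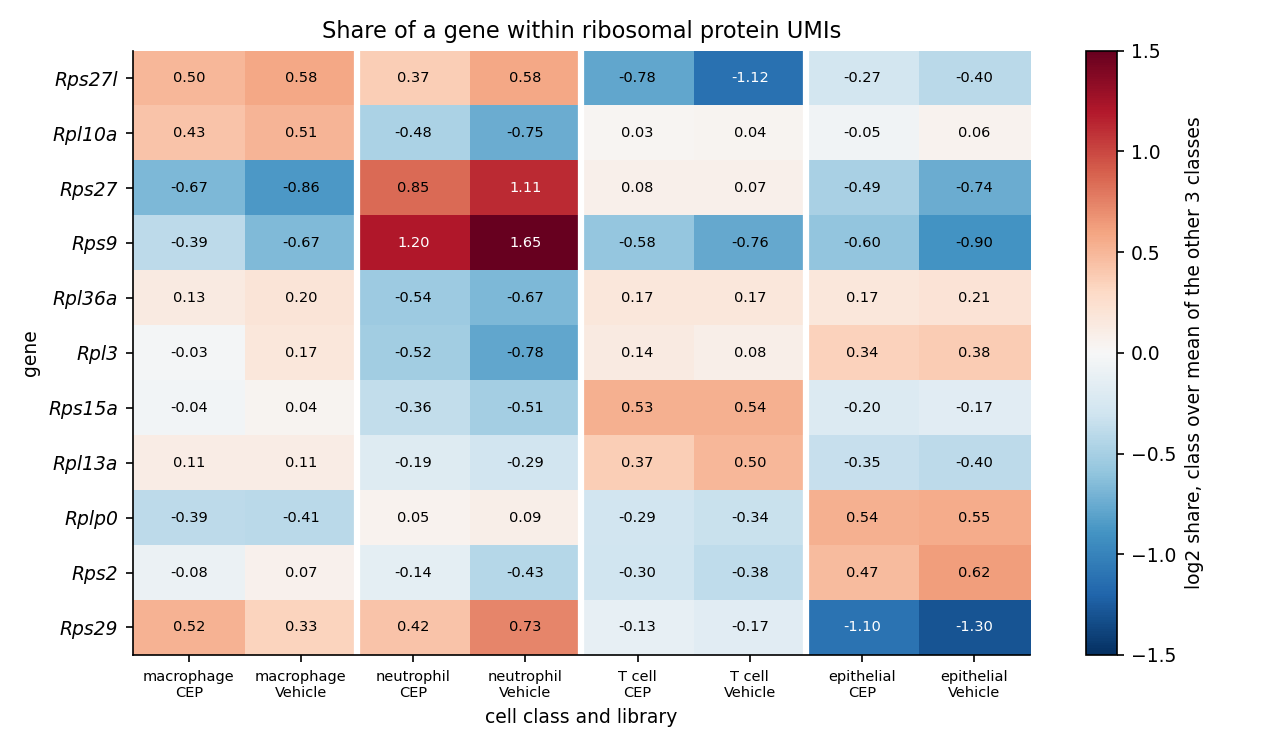
Relative share of 11 members within the ribosomal protein UMIs of a class (colour and printed value, log2 of the class over the mean of the other 3 classes), for each class (CEP left, Vehicle right in each pair). Rps9 and Rps27 are high in neutrophils, Rplp0 and Rps2 in epithelial cells (0.54 and 0.55 for Rplp0), and Rps27l is low in T cells and high in macrophages.

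Paralogs could be compared across classes. Rps27l had 384 and 369 CPM in CEP and Vehicle macrophages, 312 and 294 CPM in epithelial cells, 229 and 166 CPM in T cells and 146 and 114 CPM in neutrophils, whereas Rps27 had 1577 and 1476 CPM in T cells, 1190.1 and 1104 CPM in epithelial cells, 893 and 783 CPM in macrophages and 783 and 656 CPM in neutrophils. Macrophages thus led in Rps27l, while only neutrophils were below them in Rps27, in both libraries. Rps27rt, an intronless copy, had 37.4 and 36.96 CPM in T cells and 19.2 and 17.2 CPM in macrophages, and 88.5% of its last windows are shared with other gene models. Rpl22, which also binds RNA outside the ribosome, had 1256 and 1185 CPM in macrophages and 1508 and 1556 CPM in epithelial cells, and its copy Rpl22l1 had 593 and 538 CPM and 618 and 512 CPM. Rpl36a and its autosomal copy Rpl36al were close in macrophages, at 886 and 886 CPM and at 823 and 813 CPM, but not in epithelial cells, at 1086 and 1173 CPM and at 631 and 648 CPM. Rpl7 had 1152 and 1131 CPM in macrophages, against 55.6 and 58.8 CPM for Rpl7l1, and Rpl39 had 1896 and 1683 CPM, against 0.276 and 0.5895 CPM for Rpl39l, the form known from mouse testis.

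Between the treatment groups, the members were slightly higher in CEP macrophages. Their share of UMIs was 18.3% and 17.3% in CEP and Vehicle macrophages, a log2 ratio of 0.077 (0.076 to 0.079), and the median cell had 18.2% and 17.3%. Of 84 members 79 had a ratio above 0, each counted with at least 100 UMIs in the class, with a median log2 of 0.06 against 0.02 over 11350 genes and a range of -0.11 to 0.25. At least 25% higher in CEP were 0 members, against 6.88% of all genes, and at least 20% lower 0, against 3.47%; among genes at 100 CPM or more, where 80 members lie, the backgrounds were 1.02% and 1.6%. The difference was small and shared by nearly all members. The highest were Rps29, at 1950.2 and 1638 CPM and a log2 ratio of 0.25 (0.24 to 0.27), Rps21, at 1431 and 1211 CPM and 0.24 (0.22 to 0.26), and Rpl41, at 5309 and 4558 CPM and 0.22 (0.21 to 0.23), all of them very short proteins. The lowest were Rpl10, which joins the large subunit late in its assembly, at 1879 and 2029 CPM and -0.11 (-0.12 to -0.098), Rpl7l1 at -0.082 (-0.16 to -0.0043) and Rpl3 at -0.068 (-0.081 to -0.054). Macrophages with at least 3 UMIs of the cell cycle genes Mki67, Top2a and Cdk1 together had shares of 18.5% and 17.3% and those with 0 had 18.1% and 17.4%, so the CEP value was the higher in both. The mitochondrial share of UMIs, 1.28% and 1.11%, was also higher in CEP macrophages, and its part in this difference was not tested.

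In epithelial cells the direction was the other way. Their share was 21.97% and 22.8% in CEP and Vehicle cells, a log2 ratio of -0.053 (-0.056 to -0.050), and the median cell had 21.8% and 22.9%. Of 83 members 62 had a ratio below 0, with a median log2 of -0.05 against -0.03 over 9784 genes; 0 were at least 25% higher or 20% lower, against 9.51% of genes higher and 11% lower, or 3.89% and 1.61% of genes at 100 CPM or more. The members thus lay near the middle of all genes in this class, and the 111 Vehicle cells are few beside 780 in CEP. Rpl22l1 was the highest, at 618 and 512 CPM and a log2 ratio of 0.27 (0.20 to 0.35), which thinning to 1000 UMIs turned to -0.040, followed by Rps29 at 0.17 (0.11 to 0.22) and Rps21 at 0.15 (0.11 to 0.20). Rpl22l1 can replace Rpl22 in the ribosome, and Rpl22 itself was at 1508 and 1556 CPM and -0.045 (-0.088 to -0.0015). The lowest were Rpl10 at 2104 and 2473 CPM and -0.23 (-0.27 to -0.20), Rpl23a, which lies at the exit of the peptide tunnel, at -0.20 (-0.27 to -0.13), and Rps6 at 1518 and 1740.2 CPM and -0.20 (-0.24 to -0.16). Epithelial cells with at least 3 of those cell cycle UMIs had 21.6% and 22.2% and those with 0 22.4% and 22.8%.

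T cells had 21.5% and 19.5% of their UMIs in members in CEP and Vehicle, a log2 ratio of 0.14 (0.13 to 0.15), and a median cell of 22.6% and 21.2%. Of 80 members 79 had a ratio above 0, with a median log2 of 0.15 against 0.03 over 2729 genes. At least 25% higher were 2 members, Rps27l and Rpl41, against 14.1% of all genes, and at least 20% lower 0, against 14.1%; for genes at 100 CPM or more the backgrounds were 11.4% and 11.5%. Rps27l had 229 and 166 CPM and a log2 ratio of 0.46 (0.16 to 0.77), Rpl41 5974 and 4736 CPM and 0.33 (0.28 to 0.39), and Rpl29 1342 and 1078 CPM and 0.32 (0.20 to 0.44). The lowest were Rps24 at -0.046 (-0.10 to 0.0097), Rpl5 at 0.0029 (-0.16 to 0.17) and Rps9 at 0.0073 (-0.054 to 0.068). The pooled difference was smaller without the T-gated cells that also passed the neutrophil gate: among the 151 and 230 T cells outside the neutrophil gate the share was 23.7% and 23.2%, a log2 ratio of 0.031 (0.023 to 0.040), with median cells of 23.3% and 22.1%. S100a8, a neutrophil calcium-binding protein, was at 10979 and 14503 CPM in the T gate, and its part in the difference was not otherwise tested. By subset, T cells with Cd8 UMIs (40 and 59) had 25.1% and 26.2%, and those with Foxp3 (28 and 42), the regulatory T cell factor, 19.96% and 15.8%. The Cd8 cells were lower in CEP and the Foxp3 cells higher, on few cells.

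In neutrophils the pooled share was 7.38% and 5.37% in CEP and Vehicle, the largest difference of the 4 classes, at a log2 ratio of 0.46 (0.45 to 0.47), yet the median neutrophil had 3.36% and 3.38%. Of 83 members 81 had a ratio above 0, with a median log2 of 0.50 against 0.05 over 6274 genes. At least 25% higher in CEP were 68 members, against a background of 25% of all genes, and at least 1.5-fold higher 27, against 13%; 0 were at least 20% lower, against 7.75%. Among genes at 100 CPM or more, which hold 80 members and all of the 68, the backgrounds were 14.6% and 6.44%. The highest were Rpl14, a large subunit protein, at 465 and 241 CPM and a log2 ratio of 0.95 (0.85 to 1.05), Rpl12, a protein of the stalk base, at 327 and 184 CPM and 0.83 (0.71 to 0.94), and the stalk protein Rplp1 at 1079 and 624 CPM and 0.79 (0.73 to 0.85). The lowest were Rpl7l1 at -0.071 (-0.44 to 0.29), Rps9 at -0.056 (-0.084 to -0.027) and Rpl10 at 0.20 (0.14 to 0.27). Over the whole gate the sums thus differed where the median cells did not. Neutrophils of over 5000 UMIs (160 and 213 cells) had 12.9% and 8.596%, and the others (1492 and 1890) 4.005% and 3.73%. The median cell of over 5000 UMIs had 8.78% and 4.45%, and the median of the others 3.31% and 3.35%. Median cells thus differed among the deeper neutrophils of this gate. The keratin Krt18 was at 329 and 52.6 CPM in the neutrophil gate and Krt8 at 193 and 29.7 CPM. With cells thinned to 1000 UMIs, and those of fewer UMIs left out, 9 members were at least 25% higher. As a mean over cells 2 were, and over cells that passed only 1 of the 4 gates 7. The log2 ratio of the share was 0.12, 0.10 and 0.14 in these 3 settings. Thinning also turned the sign of Rps9 (0.013) and Rpl10 (-0.057).

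A narrower gate, chosen after these values were seen, kept neutrophils with at least 20 UMIs of S100a8 and S100a9 and 0 of Krt8 and Krt18. The 1369 and 1745 cells it kept had 4.46% and 3.804% of UMIs in members, a log2 ratio of 0.23 (0.22 to 0.24), and median cells of 3.100% and 3.16%. The rest of the gate, 283 and 358 cells, had 14.9% and 12.5%. Within the narrower gate 33 of 81 members were at least 25% higher in CEP, against 10.6% of all genes, and 0 at least 20% lower, against 7.54%; the members' median log2 ratio was 0.27 against 0.01 over 4963 genes. The difference between the sums was thus smaller there, and the median cell was again not higher in CEP. The 6 epithelial markers together had 13.0 and 6.33 CPM there, with 3 of 6 at 0 in each library, and 9 macrophage markers 820 and 720 CPM. Rpl14 had 212 and 134 CPM there, Rpl12 154 and 109.6 CPM, Rplp1 560.3 and 408 CPM and Rps9 3773 and 3892 CPM. Among its cells of 5000 UMIs or fewer the share was 3.48% and 3.28%, and among the 95 and 145 deeper ones 7.396% and 5.14%. The median cells had 3.12% and 3.17% in the former and 2.81% and 2.76% in the latter. Against macrophages the low level of neutrophils was stronger in this gate, with a median log2 ratio of -2.16 in CEP and -2.39 in Vehicle and 80 of 83 members at least 2-fold lower in both libraries, against 48.1% of all genes. The mitochondrial share in the whole neutrophil gate was 0.647% and 0.426%. The parts of keratin-bearing cells, of depth and of mitochondrial content in the neutrophil difference were not tested beyond these values.

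**Figure D4:**
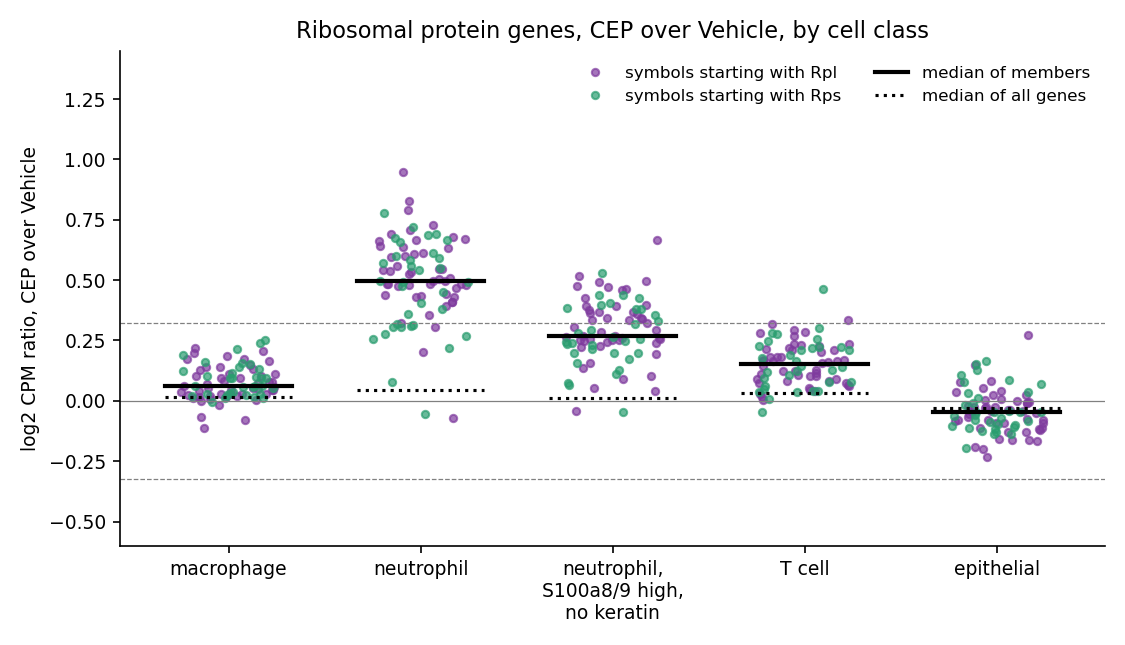
log2 CPM ratio of each member, CEP over Vehicle (y axis), by class (x axis); points are genes, solid lines the median of the members, dotted lines the median of all genes, and dashed lines mark 25% higher and 20% lower. The members' median is 0.50 in neutrophils, 0.27 in the narrower neutrophil gate, 0.15 in T cells, 0.06 in macrophages and -0.05 in epithelial cells.

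By role, the members mostly followed their class. The stalk recruits translation factors and is built from Rplp0, Rplp1 and Rplp2. Rplp0 had 3879.7 and 3555 CPM in CEP and Vehicle macrophages and a log2 ratio of 0.13, Rplp1 3455 and 3068 CPM and 0.17, and Rplp2 2125 and 2012 CPM and 0.079. In epithelial cells the same 3 had 7502 and 7640.4 CPM, 3593 and 3395 CPM and 1838 and 1849 CPM, with log2 ratios of -0.026, 0.082 and -0.0083. Of the 3, Rplp0 alone was well above its macrophage level in epithelial cells of both libraries. Rpl5 and Rpl11 travel together with ribosomal RNA and can bind the p53 regulator MDM2 when assembly fails. Rpl5 had 531 and 537 CPM in macrophages and 737 and 822 CPM in epithelial cells, with log2 ratios of -0.018 (-0.043 to 0.0073) and -0.16 (-0.22 to -0.097). Rpl11 had 2936 and 2922 CPM and 3283 and 3442 CPM, with 0.0070 (-0.0037 to 0.018) and -0.068 (-0.097 to -0.039). Rps6, the target of S6 kinase, was at 1149.9 and 1154 CPM and -0.0057 (-0.023 to 0.011) in macrophages. Rpsa, known also as a laminin receptor, had 6006 and 5873 CPM in epithelial cells, 4992 and 4268 CPM in T cells, 3205 and 3004 CPM in macrophages and 1440.4 and 912 CPM in neutrophils, with epithelial cells highest in both libraries.

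Rps27a, which is made as a fusion with ubiquitin, had 3972 and 3910.2 CPM in macrophages and 1912 and 1641 CPM in neutrophils, with log2 ratios of 0.023 and 0.22. By the mean level of both libraries the 3 highest members were Rps9, Rpl41 and Rps27a in neutrophils, Rpl13, Rpl41 and Rps9 in macrophages, Rpl13, Rps24 and Rpl41 in T cells and Rpl13, Rplp0 and Rpl41 in epithelial cells. The order of members within a library can differ from this. Rpl13 had 5213 and 5051 CPM in macrophages, 1917 and 1196 CPM in neutrophils, 6412 and 5538 CPM in T cells and 7352 and 8229 CPM in epithelial cells. Of the proteins of the decoding region and entry tunnel, Rps2 had log2 ratios of 0.062 in macrophages, 0.78 in neutrophils, 0.30 in T cells and -0.058 in epithelial cells, and Rps3 0.020, 0.27, 0.12 and -0.11. Rpl4, which lines the peptide tunnel, had 0.028, 0.66, 0.20 and -0.043, Rpl10a 0.028, 0.69, 0.14 and -0.12, and the X-linked Rps4x 0.014, 0.47, 0.042 and -0.12, in the same order of classes. All 5 were positive in macrophages, neutrophils and T cells and negative in epithelial cells. The small ones depend on the settings: thinning to 1000 UMIs turned the sign of Rps3 and Rpl4 in macrophages, Rps3 and Rps4x in neutrophils and Rps2 in T and epithelial cells, and the mean over cells that of Rps3 in neutrophils. Rpl38, whose loss in mice changes the translation of Hox mRNAs, had 1022 and 886 CPM in macrophages and 1105 and 1121 CPM in epithelial cells, with 0.21 (0.19 to 0.22) and -0.021 (-0.071 to 0.030). Rps19bp1, not a subunit, had 42.9 and 38.5 CPM in macrophages and 0.16 (0.066 to 0.25).

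The ratio between the groups varied with the length of the coding sequence, a property the choice of members did not use. Coding length ran from 75 bases in Rpl41 to 1257 bases over the members, with a median of 453 bases. Spearman's correlation of length with the log2 ratio, CEP over Vehicle, was -0.53 over 84 members in macrophages, -0.50 over 83 in epithelial cells, -0.23 over 80 in T cells and 0.11 over 83 in neutrophils; the points of a class share both libraries, so these are descriptions. In macrophages the 19 members under 350 bases, a limit chosen after the values were seen, had a median log2 ratio of 0.17 and the 65 longer ones 0.052. In epithelial cells the medians were -0.0016 and -0.078. Short members thus lay above long ones in both classes, although the members' medians lay on opposite sides of 0. Over the other genes at 100 CPM or more the same correlation was -0.094 over 1276 genes in macrophages, -0.0046 over 1390 genes in epithelial cells, -0.091 over 1341 in T cells and -0.22 over 1210 in neutrophils. Over all other genes with 100 UMIs it was 0.12 over 10747 genes in macrophages, of the opposite sign to that of the members, 0.021 over 9473 in epithelial cells, -0.073 over 2619 in T cells and -0.12 over 6068 in neutrophils. Rps29, Rps21 and Rpl41 were short members with high ratios in both, and Rpl10 was the lowest in both.

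**Figure D5:**
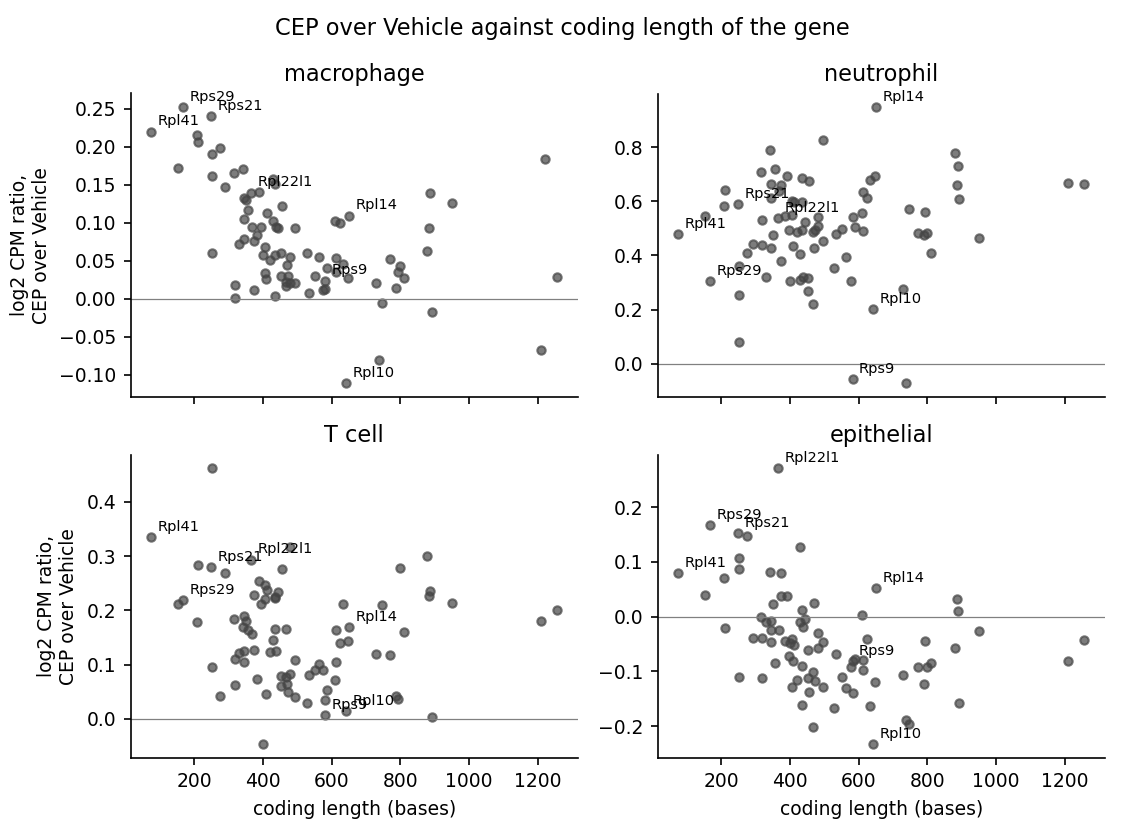
log2 CPM ratio of each member, CEP over Vehicle (y axis, own scale per panel), against coding length in bases (x axis), 1 panel per class; points are genes. In macrophages and epithelial cells the points under 350 bases lie mostly above the longer ones, and Rpl10 lies lowest.

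Genes that work with the members were read from lists. The 22 TOP genes outside the rule, mostly translation factors, had median log2 ratios, CEP over Vehicle, of 0.015 in macrophages, 0.49 in neutrophils, 0.16 in T cells and -0.077 in epithelial cells. At least 25% higher in CEP were 0 of 22 in macrophages, 14 of 22 in neutrophils, 2 of 22 in T cells and 0 of 22 in epithelial cells, where the shares over all genes were 6.88%, 25%, 14.1% and 9.51%. At least 20% lower were 0 in each class, where the shares over all genes were 3.47%, 7.75%, 14.1% and 11%. The same shares stand behind the counts of the lists below. In macrophages the median of these TOP genes lay at that of all genes, 0.016, below that of the members, 0.061. Eef1g, a subunit of a translation elongation complex, was at 117 and 50.1 CPM and 1.22 (1.01 to 1.43) in neutrophils, and Eif3l, of the initiation factor that holds the small subunit, at 51.5 and 23.6 CPM and 1.12 (0.81 to 1.44), while Fau was the lowest at 0.056 (0.031 to 0.082) and Eif3k next at 0.057 (-0.061 to 0.17). In macrophages Eif4a2, a helicase, was the highest at 0.20 (0.11 to 0.28), and Eif3m the lowest at -0.098 (-0.16 to -0.041) before the nucleolar chaperone Npm1 at -0.054 (-0.073 to -0.035). Npm1 and Eif3l were also the lowest in epithelial cells, at -0.18 (-0.21 to -0.14) and -0.15 (-0.24 to -0.047).

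Ribosome biogenesis genes had medians of 0.046 in macrophages, 0.58 in neutrophils, 0.013 in T cells and -0.032 in epithelial cells. As a mean over cells the neutrophil median turned to -0.012. Of this list, 0 of 30 in macrophages, 14 of 18 in neutrophils, 0 of 9 in T cells and 1 of 30 in epithelial cells were at least 25% higher, and at least 20% lower 0 in macrophages, 0 in neutrophils, 2 in T cells and 2 in epithelial cells. Gnl3, a nucleolar GTPase, was the highest in macrophages at 48.2 and 39.2 CPM and 0.30 (0.21 to 0.39), and Wdr12, which acts in large subunit assembly, the lowest at -0.17 (-0.30 to -0.036). In neutrophils Wdr43, of the small subunit processome, was the highest at 20.9 and 5.73 CPM and 1.85 (1.27 to 2.49). The list for growth control of translation had medians of 0.039 in macrophages, 0.053 in neutrophils, 0.10 in T cells and -0.059 in epithelial cells, against 0.016, 0.046, 0.032 and -0.030 over all genes. Of its genes, 0 of 13 in macrophages, 4 of 10 in neutrophils, 1 of 7 in T cells and 0 of 13 in epithelial cells were at least 25% higher, and at least 20% lower 0 in macrophages, 0 in neutrophils, 0 in T cells and 3 in epithelial cells. Myc, the transcription factor known to raise ribosome production, was at 21.8 and 3.58 CPM and 2.57 (1.90 to 3.38) in the neutrophil gate, at 1.24 and 1.97 CPM in the narrower gate, at 27.1 and 30.6 CPM and -0.17 (-0.28 to -0.064) in macrophages and at 173 and 141 CPM and 0.29 (0.15 to 0.43) in epithelial cells. Its high value in the CEP neutrophil gate was thus absent from neutrophils with S100a8 and S100a9 UMIs and 0 keratin UMIs. Larp1 had 106 and 70.99 CPM and 0.58 (0.12 to 1.05) in T cells, the highest of the list there, and Eif4ebp2, a repressor of cap-dependent translation, 25.2 and 33.8 CPM and -0.43 (-0.73 to -0.12) in epithelial cells, the lowest there.

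Genes of the mitochondrial ribosome, a separate machine made in the same cytosol, had medians of -0.012 in macrophages, 0.39 in neutrophils, 0.13 in T cells and -0.065 in epithelial cells. With cells thinned to 1000 UMIs the neutrophil median turned to -0.090. Among them, 1 of 78 in macrophages, 37 of 61 in neutrophils, 9 of 36 in T cells and 0 of 78 in epithelial cells were at least 25% higher, and at least 20% lower 0 in macrophages, 0 in neutrophils, 0 in T cells and 7 in epithelial cells. Mrps6 was the 1 in macrophages, at 34.2 and 26.8 CPM and 0.35 (0.24 to 0.46). Genes encoded in the mitochondrion had 0.19 in macrophages, 0.84 in neutrophils, 0.18 in T cells and 0.025 in epithelial cells. Of these, 2 of 13 in macrophages, 12 of 13 in neutrophils, 1 of 11 in T cells and 1 of 13 in epithelial cells were at least 25% higher, and at least 20% lower 0 in each class. In neutrophils mt-Cytb, of the respiratory chain, was at 639.8 and 256 CPM and 1.32 (1.23 to 1.41). Host genes of small nucleolar RNAs, whose transcripts carry TOP motifs but encode no protein, had 0.15 in macrophages, 0.80 in neutrophils, 0.16 in T cells and 0.052 in epithelial cells. The T cell median turned to -0.15 over cells that passed only 1 of the 4 gates and to -0.11 as a mean over cells. In this list, 0 of 7 in macrophages, 4 of 5 in neutrophils, 1 of 3 in T cells and 1 of 7 in epithelial cells were at least 25% higher, and at least 20% lower 0 in each class. Gas5 was at 208 and 119 CPM and 0.81 (0.66 to 0.96) in neutrophils. In the narrower neutrophil gate the medians were 0.16 for TOP genes outside the rule, 0.27 for biogenesis (7 genes measured), 0.071 for growth control, 0.058 for the mitochondrial ribosome, 0.69 for genes of the mitochondrion and 0.30 for host genes (4 measured), against 0.012 for all genes. Genes of the mitochondrion had the largest CEP excess of these lists in that gate.

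2 further classes held enough cells in each library to be described. Monocytes (379 and 414 cells), gated by at least 3 UMIs of Ly6c2 and Plac8, had 16.7% and 15.03% of UMIs in members and median cells of 14.4% and 14.4%. Mature dendritic cells gated by at least 5 UMIs of Ccr7, Fscn1 and Ccl22 numbered 637 and 134, but most CEP cells in that gate carried keratins; with fewer than 10 keratin UMIs 96 and 63 remained, with 16.4% and 14.7%. In both, the CEP sum was the higher, and in monocytes the median cells were nearly equal. Cells that passed none of the 4 gates (2114 and 2150) had 15.9% and 15.3%.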

How the data were processed

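The deposited matrices hold counts, raw UMIs per gene and barcode, with no normalization. The submitters' processing notes name mm10 and Cell Ranger 5.0.1, whereas the matrix itself names 7.1.0, per the file headers. No source used here says whether intronic reads were counted or how reads shared by gene copies were treated. Per the labels' protocols about 30000 cells per sample were loaded for 3' sequencing; 9621 CEP and 9989 Vehicle barcodes were deposited, each with at least 500 UMIs.

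A minimum of 200 genes and a ceiling of 15% mitochondrial UMIs left 9544 CEP and 9932 Vehicle barcodes. Scrublet (in scanpy 1.11.5) marked 1 and 2 doublets by its own threshold, which has not worked at that rate, so cells above the limit of its highest 8% of scores, 702 and 777, were removed. Doublets of 1 class are not found by it. Barcodes may carry free RNA, so a UMI in a cell is not by itself expression. Neutrophils and T cells needed fewer than 3 complement UMIs and epithelial cells fewer than 10.

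UMIs were summed per class and library and divided by the class total (per 1000000, CPM); log2 ratios add 0.5 UMI to each sum. Genes with at least 100 UMIs in a class were counted where at least 25% higher or 20% lower, 1.5-fold or 2-fold, with the share of all such genes past the same fold as background. Intervals are exact binomial for shares, exact Poisson for sums and conditional binomial for CPM ratios, at 95%. Those for ratios of shares use a normal approximation on the log ratio, also at 95%. The calculation was checked on simulated counts. Promoters are RefSeq's, positions and coding lengths GENCODE M21's, of the same build. Python 3.11.15, numpy 2.4.6, scipy 1.17.1 and pandas 2.3.3 were used.

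The members, gene lists and gates were chosen with earlier results of these data known. Genes named are, per class, the 3 highest and 3 lowest ratios among members with 100 UMIs in each library, the 3 highest levels, the 2 highest and 2 lowest relative shares, members fixed by role, ribosomal protein genes the rule misses, and the 2 highest and lowest of each other list. Msrb1 and Tsen34 were added after their values were seen. Some genes that the rule names are not reported here.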

Additional observations from a re-analysis of the deposited data

Results flagged for a closer look

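The members' share of UMIs went in opposite directions in epithelial cells and in the 3 leukocyte classes. The log2 ratio, CEP over Vehicle, was -0.053 in epithelial cells, 0.077 in macrophages, 0.46 in neutrophils and 0.14 in T cells. With 1 library per group, each ratio compares these libraries only, and the difference between classes was not tested. Beside it stand the nearly equal median neutrophils of the whole gate in both libraries (3.36% and 3.38%), the T cells outside the neutrophil gate, at a log2 ratio of 0.031, and the small number of Vehicle epithelial cells, 111. The T cell subsets were also split, on few cells. Those with Cd8 were lower in CEP, at -0.060 (-0.072 to -0.048), and those with Foxp3 higher, at 0.34 (0.32 to 0.36).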

How the results depend on the processing

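No paired analysis was possible because each group was 1 library and the labels carry no replicate numbers, and for the same reason no replicate was left out. Depth limits T cells most, with the widest counting intervals. Of 266 recomputed class values and counts, 161 stayed within their interval (counts within 1.5 times) and 105 did not. Counts of members cannot change sign. For the other values a change of sign was counted only where the main interval left out 0, and 0 such changes were counted. The interval was counting error for shares and an interval of the median over genes for the members' median log2 ratio. In neutrophils most alternatives made the difference between CEP and Vehicle smaller and the gap to macrophages wider. The cause of the shifts was not tested. The narrower neutrophil gate, and all alternatives for the values between classes, were chosen after seeing the data. Thinning to 1000 UMIs left out cells of fewer UMIs.

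For macrophages, the log2 ratio of the members' share of UMIs, CEP over Vehicle, was 0.077 and became 0.086 with doublets kept and with all deposited barcodes and 0.067 with cells thinned to 1000 UMIs and as a mean over cells. For neutrophils, the log2 ratio of the members' share of UMIs, CEP over Vehicle, was 0.46 and became 0.54 with doublets kept and with all deposited barcodes, 0.26 with gates at double the UMI minimum, 0.14 over cells that passed only 1 of the 4 gates, 0.12 with cells thinned to 1000 UMIs, 0.097 as a mean over cells and 0.23 in the narrower neutrophil gate. For T cells, the log2 ratio of the members' share of UMIs, CEP over Vehicle, was 0.14 and became 0.15 with doublets kept and with all deposited barcodes, 0.11 with gates at double the UMI minimum, 0.048 over cells that passed only 1 of the 4 gates, 0.090 with cells thinned to 1000 UMIs and 0.061 as a mean over cells. For epithelial cells, the log2 ratio of the members' share of UMIs, CEP over Vehicle, was -0.053 and became -0.030 with doublets kept and with all deposited barcodes, -0.065 with cells thinned to 1000 UMIs and -0.078 as a mean over cells. For macrophages, the members' median log2 CPM ratio was 0.061 and became 0.044 less the median of all genes. For neutrophils, the members' median log2 CPM ratio was 0.50 and became 0.59 with doublets kept and with all deposited barcodes, 0.30 with gates at double the UMI minimum, 0.18 over cells that passed only 1 of the 4 gates, 0.15 with cells thinned to 1000 UMIs, 0.12 as a mean over cells, 0.45 less the median of all genes and 0.27 in the narrower neutrophil gate. For T cells, the members' median log2 CPM ratio was 0.15 and became 0.12 with gates at double the UMI minimum, 0.045 over cells that passed only 1 of the 4 gates, 0.090 with cells thinned to 1000 UMIs, 0.059 as a mean over cells and 0.19 over the UMIs of other genes. For epithelial cells, the members' median log2 CPM ratio was -0.048 and became -0.033 with doublets kept and with all deposited barcodes, -0.086 as a mean over cells and -0.018 less the median of all genes. For neutrophils, the count of members at least 25% higher in CEP was 68 and became 34 with gates at double the UMI minimum, 7 over cells that passed only 1 of the 4 gates, 9 with cells thinned to 1000 UMIs, 2 as a mean over cells and 33 in the narrower neutrophil gate. For T cells, the count of members at least 25% higher in CEP was 2 and became 1 over cells that passed only 1 of the 4 gates, with cells thinned to 1000 UMIs, as a mean over cells and less the median of all genes, 5 over the UMIs of other genes and 4 with a floor of 20 UMIs and with a floor of 1 UMI. For macrophages, the count at least 20% lower was 0 and became 1 with a floor of 20 UMIs and with a floor of 1 UMI. For neutrophils, the count at least 20% lower was 0 and became 1 over cells that passed only 1 of the 4 gates and as a mean over cells. For T cells, the count at least 20% lower was 0 and became 1 with a floor of 1 UMI. For epithelial cells, the count at least 20% lower was 0 and became 3 with cells thinned to 1000 UMIs. For neutrophils of CEP, the log2 ratio of the share over macrophages was -1.31 and became -1.15 with doublets kept, -1.16 with all deposited barcodes, -1.83 with gates at double the UMI minimum, -1.71 over cells that passed only 1 of the 4 gates, -2.00 with cells thinned to 1000 UMIs, -1.99 as a mean over cells and -2.04 in the narrower neutrophil gate. For neutrophils of Vehicle, the log2 ratio of the share over macrophages was -1.69 and became -1.61 with doublets kept and with all deposited barcodes, -2.01 with gates at double the UMI minimum, -1.78 over cells that passed only 1 of the 4 gates, -2.04 with cells thinned to 1000 UMIs, -2.02 as a mean over cells and -2.19 in the narrower neutrophil gate. For T cells of CEP, the log2 ratio of the share over macrophages was 0.23 and became 0.22 with doublets kept and with all deposited barcodes, 0.38 with gates at double the UMI minimum, 0.39 over cells that passed only 1 of the 4 gates, 0.31 with cells thinned to 1000 UMIs and 0.27 as a mean over cells. For T cells of Vehicle, the log2 ratio of the share over macrophages was 0.17 and became 0.16 with doublets kept and with all deposited barcodes, 0.35 with gates at double the UMI minimum, 0.42 over cells that passed only 1 of the 4 gates and 0.28 with cells thinned to 1000 UMIs and as a mean over cells. For epithelial cells of CEP, the log2 ratio of the share over macrophages was 0.26 and became 0.26 with doublets kept and with all deposited barcodes and 0.27 with cells thinned to 1000 UMIs and as a mean over cells. For epithelial cells of Vehicle, the log2 ratio of the share over macrophages was 0.40 and became 0.38 with doublets kept and with all deposited barcodes, 0.40 with cells thinned to 1000 UMIs and 0.42 as a mean over cells. For macrophages, the count of members with a relative share at least 25% higher in both libraries was 5 and became 9 as a mean over cells. For T cells, the count of members with a relative share at least 25% higher in both libraries was 2 and became 7 with cells thinned to 1000 UMIs and 6 as a mean over cells. For epithelial cells, the count of members with a relative share at least 25% higher in both libraries was 6 and became 13 with cells thinned to 1000 UMIs and 15 as a mean over cells. For neutrophils, the count with one at least 20% lower was 9 and became 5 with doublets kept and with all deposited barcodes, 22 with gates at double the UMI minimum, 19 over cells that passed only 1 of the 4 gates, 28 with cells thinned to 1000 UMIs and as a mean over cells and 26 in the narrower neutrophil gate. For T cells, the count with one at least 20% lower was 4 and became 10 with cells thinned to 1000 UMIs and 11 as a mean over cells.

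Of 1945 values for single members and other lists, 1519 stayed within their interval, 397 moved out of it and 29 were counted as changes of sign. The interval was counting error for single members and an interval of the median over genes for lists. The cause was not tested. Changes of sign were counted only where the main interval left out 0, so others may stand among the 1519 and 397. Those counted are given here for the log2 ratio, CEP over Vehicle. With cells thinned to 1000 UMIs, it turned to -0.026 for Rpl4 and -0.0069 for Rps3 in macrophages, -0.090 for mitochondrial ribosomal proteins, -0.057 for Rpl10, -0.016 for Rpl7, -0.016 for Rps3, -0.041 for Rps4x and 0.013 for Rps9 in neutrophils, -0.026 for Rps2 and -0.084 for Rps27a in T cells and -0.040 for Rpl22l1 and 0.0053 for Rps2 in epithelial cells. Less the median of all genes, it turned to -0.0022 for Rps4x in macrophages and 0.0036 for Rplp0 in epithelial cells. As a mean over cells, it turned to -0.012 for ribosome biogenesis, -0.082 for Rpl10, -0.027 for Rps27a and -0.0076 for Rps3 in neutrophils, -0.11 for snoRNA host genes, -0.014 for Rpl3 and -0.039 for Rps27a in T cells and -0.0031 for Rpl39 in epithelial cells. Over cells that passed only 1 of the 4 gates, it turned to -0.011 for Rpl10 and -0.0033 for Rps27a in neutrophils and -0.15 for snoRNA host genes, -0.019 for Rpl11 and -0.041 for Rps27a in T cells. With doublets kept, it turned to 0.011 for Rplp0 in epithelial cells. With all deposited barcodes, it turned to 0.011 for Rplp0 in epithelial cells.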
